A study of Mus musculus with 6 samples.

Results

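Cells make cholesterol from acetyl-CoA through the mevalonate pathway, and the genes of that pathway are controlled together by the transcription factor SREBP2. When sterols are scarce in the endoplasmic reticulum, the escort protein Scap carries SREBP2 to the Golgi, where proteases release its active part; when sterols are plentiful, Insig proteins hold the complex back. Muscle cells need cholesterol for growth and for the membranes that fuse when myotubes form. The genes described here are 8 listed genes of this system: Srebf2, which encodes SREBP2, Insig1, and the enzymes Hmgcs1, Idi1, Fdft1, Sqle, Lss and Cyp51. A member was measured where a probe set was annotated with its symbol alone, which held for 7 of the 8. The probe set for Idi1, the isomerase of the pathway's isoprenoid building block, was annotated with a second gene, so Idi1 was not analysed here. The 7 measured members are part of 22180 genes with such a probe set, of which 13652, these 7 included, reached the median of all values (log2 5.06, used as a floor) on at least 1 array.

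The samples were 6 cultures of C2C12, an established mouse myoblast line that multiplies in serum-rich medium and can be made to form myotubes. All were raised in DMEM with 10% FBS (fetal bovine serum), and each was read on 1 Affymetrix array. Growth-medium cultures stayed in 10% FBS and were untreated, given TNF-α at 50 ng/ml for 24 h, or given BTZ at 10 nM for 24 h. Differentiation cultures were moved from 10% FBS to 2% differentiation medium and harvested on day 5, either untreated or with TNF-α at 50 ng/ml or BTZ at 10 nM added on day 4. The cytokine TNF-α drives inflammation. BTZ is not spelled out in the labels; the abbreviation commonly means bortezomib, a proteasome inhibitor. Each group held 1 array, so a difference between 2 arrays has no error or p-value, and neighbouring levels cannot be ordered against a replicate spread. The number of arrays limits the precision.

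The labels were set against known genes. Under BTZ, 12 of 12 listed proteasome subunit genes passed as higher in the fit over all arrays described below, beside 7.31% of genes. Past 2-fold upward were 4 of 12 in growth medium, beside 681 of 13652 genes, and 11 of 12 in differentiation medium, beside 826. Under TNF-α the listed targets of NF-kB were past 2-fold upward for 10 of 12 genes in growth medium, beside 134 of 13652 genes. In differentiation medium 12 of 12 were, beside 2.01% of genes. In the fit 5 of these 12 passed as higher for TNF-α, beside 11 of 13652 genes. All 7 myoblast markers lay above the floor on every array. Between the untreated arrays their median was 0.91 higher in differentiation than in growth medium. At least 2-fold higher there were 3 of 7, beside 4.83% of genes, and 0 were lower by that much. The summed signal of 8 myotube markers was log2 8.51 to 9.09 on the growth-medium arrays and 14.41, 14.13 and 12.55 on the untreated, TNF-α and BTZ arrays of differentiation medium. Of markers of other cell types, 0 of 6 endothelial, 0 to 2 of 6 adipocyte, 2 to 3 of 7 hepatocyte and 2 to 3 of 8 macrophage genes reached the floor on an array. In bulk RNA, fewer cells of a type and less RNA per cell cannot be told apart.

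The members' promoters are shown because 5 of the 7 genes had both BTZ arrays below the other 4, as had 16.1% of genes above the floor. RefSeq promoter windows (GRCm38.p6, 250 bases before to 50 bases after the start) were available for Hmgcs1, Insig1, Lss, Cyp51 and Srebf2. Motifs were searched on both strands. Only exact matches inside the windows were counted, so a variant of a site or a site elsewhere would be missed. The core of the sterol regulatory element, the SREBP site (TCACNCCAC), was found in 1 of the 5 windows, that of Hmgcs1, starting 137 bases before the start, and in 1.24% of 32851 promoter windows. A CCAAT box (CCAAT), the site of NF-Y, was in 5 of 5 windows and in 37.4% of all. A GC box (GGGCGG), bound by Sp1, was in 5 of 5 and in 35.7% of all, and an E-box (CACGTG) in 1 of 5, Insig1, and in 7.15% of all. Of 11 other measured enzymes of the pathway with a window, 0 held the sterol element, 11 a CCAAT box, 10 a GC box and 3 an E-box. A match is a description of letters, not of binding. The windows of Hmgcs1 (chr13:119690101-119690400, plus strand), Srebf2 (chr15:82147019-82147318, plus strand) and Lss (chr10:76531355-76531654, plus strand) follow, as the member with the largest BTZ effect in the fit, the transcription factor gene, and a member whose BTZ effect did not pass. Capitals mark the sterol element and the CCAAT boxes, which read ATTGG where the box lies on the other strand, and no marked matches overlap.
Hmgcs1: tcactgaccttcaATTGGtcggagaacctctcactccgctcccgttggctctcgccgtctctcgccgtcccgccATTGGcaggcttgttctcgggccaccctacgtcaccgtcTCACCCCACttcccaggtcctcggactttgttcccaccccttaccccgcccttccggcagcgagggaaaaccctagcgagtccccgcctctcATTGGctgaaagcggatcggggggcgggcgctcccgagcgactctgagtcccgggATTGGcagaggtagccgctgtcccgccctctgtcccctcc
Srebf2: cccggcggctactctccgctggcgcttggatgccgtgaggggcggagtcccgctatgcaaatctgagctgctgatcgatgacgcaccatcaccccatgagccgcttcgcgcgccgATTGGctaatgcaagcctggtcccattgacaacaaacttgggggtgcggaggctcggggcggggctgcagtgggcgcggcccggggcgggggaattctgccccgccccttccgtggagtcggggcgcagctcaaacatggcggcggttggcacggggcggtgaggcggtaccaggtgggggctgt
Lss: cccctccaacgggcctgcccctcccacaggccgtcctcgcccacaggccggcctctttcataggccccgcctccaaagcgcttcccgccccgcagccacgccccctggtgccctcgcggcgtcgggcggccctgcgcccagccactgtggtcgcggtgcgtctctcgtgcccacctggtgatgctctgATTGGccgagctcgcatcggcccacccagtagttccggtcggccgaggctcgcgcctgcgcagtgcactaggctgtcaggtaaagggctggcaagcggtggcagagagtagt

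BTZ differences come first. The members were chosen with earlier results of these data known, so their counts beside all genes describe the set and do not test it. Srebf2, Insig1, Hmgcs1, Fdft1 and Cyp51 fell in a fit over all arrays, with log2 effects from -2.63 to -1.49, while those of Lss and Sqle did not pass. At the level of single arrays, 5 of 7 members were at least 2-fold lower with BTZ in growth medium, where 6.16% of genes above the floor were, and 6 of 7 in differentiation medium, where 8.91% were. The members' median log2 difference was -1.55 in growth medium and -2.31 in differentiation medium, beside medians of 0.02 and 0.00 over all genes above the floor.

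Of the regulators, Srebf2 had a log2 signal of 9.90 untreated, 9.62 with TNF-α and 8.92 with BTZ in growth medium, and of 10.32, 10.06 and 8.33 in differentiation medium. Both BTZ arrays were below the other 4, and BTZ went with a difference of -0.98 in growth medium and of -1.99, a 3.97-fold lower signal, in differentiation medium. Insig1, which encodes a protein that retains the SREBP-Scap complex and is itself an SREBP target, read 10.56, 9.39 and 8.78 in growth medium in the same order and 10.46, 10.62 and 8.15 in differentiation medium. Its BTZ arrays were also the lowest, with differences from the untreated array of -1.78 in growth medium and -2.31 in differentiation medium. In growth medium Srebf2 was the member nearest to the 2-fold line, at a 1.98-fold lower signal. It was past that line, at -1.03, both when array medians were made equal and under quantile normalization.

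Hmgcs1, the HMG-CoA synthase that feeds the mevalonate pathway, read 11.31 untreated, 10.18 with TNF-α and 8.70 with BTZ in growth medium, and 11.03, 10.81 and 8.39 in differentiation medium. Its BTZ differences were nearly the same in both media, -2.61 and -2.65, or 6.10-fold and 6.26-fold lower. In growth medium it was the 61st lowest of 13652 genes by this difference, and in differentiation medium the 126th lowest. No other member had so large a BTZ difference in growth medium.

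Fdft1, the squalene synthase that commits the pathway to sterols, read 10.52, 9.87 and 8.70 in growth medium and 10.56, 10.31 and 7.37 in differentiation medium. Its BTZ difference was -1.82 in growth medium and -3.19 in differentiation medium, a 9.12-fold lower signal and the largest among the members. Cyp51, the demethylase that acts on lanosterol, read 9.83, 8.82 and 8.28 in growth medium and 9.71, 9.51 and 7.31 in differentiation medium. Its BTZ differences were -1.55 and -2.40 in that order. In both genes the BTZ array of differentiation medium was the lowest of the 6 and that of growth medium the next.

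Sqle, the epoxidase of squalene, and Lss, the cyclase that turns the epoxide into lanosterol, stood apart from the other members. Sqle read 10.13, 9.83 and 9.84 in growth medium and 10.02, 9.87 and 8.94 in differentiation medium, so its BTZ difference was -0.29 in growth medium and -1.08 in differentiation medium. In growth medium its TNF-α and BTZ arrays were nearly level. Lss read 8.78, 7.67 and 7.67 in growth medium and 8.02, 8.38 and 7.34 in differentiation medium. Its BTZ difference was -1.10 in growth medium, as large as that of TNF-α there at -1.11, and -0.68 in differentiation medium. For these 2 genes the BTZ arrays did not both lie below the other 4, as they did for the remaining 5 of 7 members and for 16.1% of genes above the floor.

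**Figure D1:**
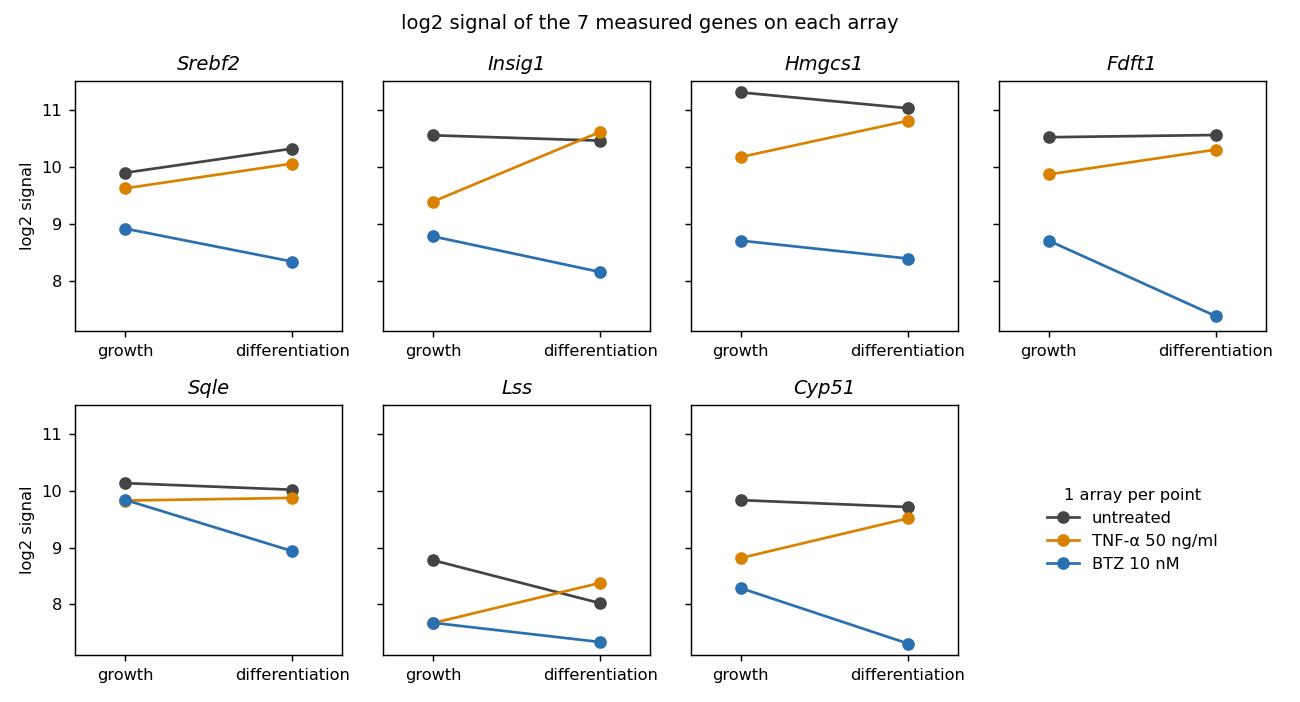
Log2 signal (y axis) of Srebf2, Insig1, Hmgcs1, Fdft1, Sqle, Lss and Cyp51 in growth and differentiation medium (x axis), with 1 point per array and lines joining the same treatment in both media. Both BTZ points lie below the other 4 in 5 of 7 genes, as in 16.1% of genes above the floor. The TNF-α points of Insig1, Hmgcs1, Lss and Cyp51 lie at least 1 log2 unit under the untreated point in growth medium only.

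The fit over all 6 arrays was made with limma on the 13652 genes, with terms for medium and for treatment that add up. It leaves 2 residual degrees of freedom, and a treatment that acts unequally in the media adds to its residual. For BTZ, 5 of 7 members passed as lower (Benjamini-Hochberg adjusted p under 0.05 over all genes), beside 6.85% of all genes that passed as lower and 7.31% as higher. The effect was -2.63 ± 0.27 in Hmgcs1 (log2 ± SE, limma adjusted p = 0.0111), -2.50 ± 0.41 in Fdft1 (limma adjusted p = 0.0210) and -2.05 ± 0.42 in Insig1 (limma adjusted p = 0.0330). It was -1.98 ± 0.38 in Cyp51 (limma adjusted p = 0.0287) and -1.49 ± 0.29 in Srebf2 (limma adjusted p = 0.0285). Lss at -0.89 ± 0.35 and Sqle at -0.69 ± 0.26 did not pass, with limma adjusted p of 0.150 and 0.132. At an unadjusted limma p under 0.05 were 7 of 7 members and 31.8% of genes. In growth medium 7 of 7 members were below the untreated array with BTZ, as were 48.4% of genes. In differentiation medium 7 of 7 were, as were 49.7% of genes.

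**Figure D2:**
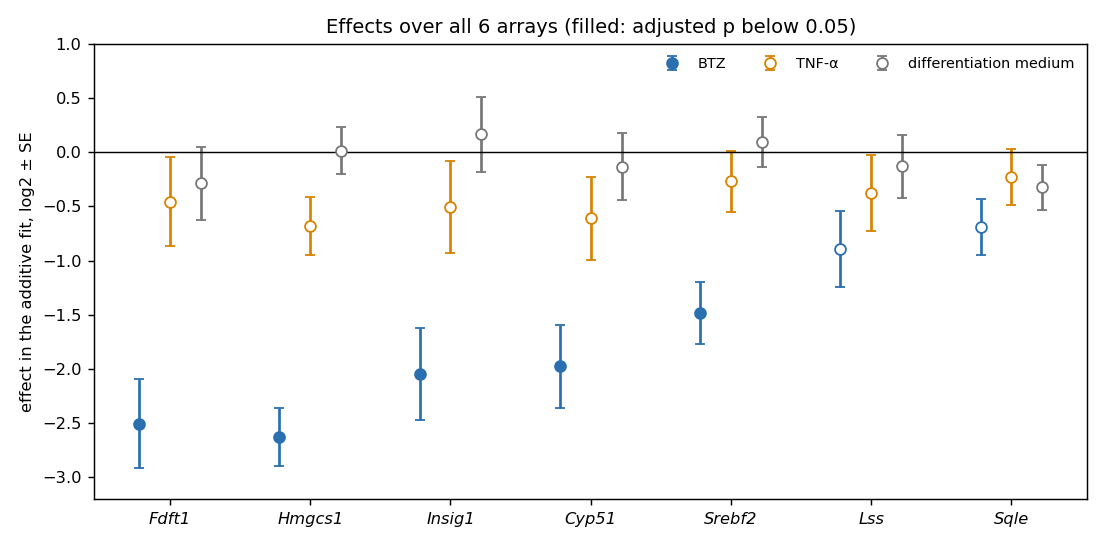
Effect of BTZ, TNF-α and differentiation medium in the additive fit over 6 arrays (y axis, log2, bars ± SE) for each of the 7 genes (x axis); filled points have an adjusted p under 0.05. The filled points are the BTZ effects of Fdft1, Hmgcs1, Insig1, Cyp51 and Srebf2, from -2.63 to -1.49, and all TNF-α and medium effects are open.

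With TNF-α, the members were lower mainly in growth medium. Insig1 was lower by 1.17, Hmgcs1 by 1.14, Lss by 1.11 and Cyp51 by 1.02, so 4 of 7 members were at least 2-fold lower, where 1.02% of genes above the floor were. Fdft1 differed by -0.65, Sqle by -0.31 and Srebf2, the gene of the transcription factor, by -0.27. Cyp51 was the member nearest to the line and fell short of it, at -0.96, when array medians were made equal. The members' median was -1.02, beside 0.03 over all genes.

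In differentiation medium 0 of 7 members were past 2-fold with TNF-α, where 0.879% of genes were lower and 2.01% higher by that much. The differences ran from -0.26 in Srebf2 and Fdft1 to 0.15 in Insig1 and 0.36 in Lss, with a median of -0.20. In the additive fit 0 of 7 members passed for TNF-α, beside 0.0952% of genes, and 1 of 7, Hmgcs1, had an unadjusted limma p under 0.05, as had 6.56% of genes. Its effect there was -0.68 ± 0.27 (limma adjusted p = 0.741).

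The TNF-α differences of Lss and Insig1 were the most unlike between the media. The TNF-α difference in differentiation medium minus that in growth medium was 1.46 in Lss, 1.32 in Insig1, 0.92 in Hmgcs1 and 0.82 in Cyp51, and 0.40, 0.16 and 0.01 in Fdft1, Sqle and Srebf2. It was above 0 in 7 of 7, as in 46.9% of genes, with a median of 0.82 beside -0.03 over all genes. For BTZ the same quantity was below 0 in 6 of 7 and in 51.6% of genes, at -1.37 in Fdft1, -1.01 in Srebf2, -0.85 in Cyp51, -0.79 in Sqle, -0.53 in Insig1 and -0.04 in Hmgcs1, and 0.42 in Lss. The TNF-α difference had opposite signs in the 2 media in 2 of 7 members and in 37.7% of genes, and the BTZ difference in 0 of 7 members and in 29.5% of genes. With 1 array per group these differences were not tested.

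The medium by itself went with small differences. Between the untreated arrays, differentiation minus growth medium was -0.76 in Lss, -0.28 in Hmgcs1, between -0.12 and 0.04 in Cyp51, Sqle, Insig1 and Fdft1, and 0.43 in Srebf2, so 0 of 7 members were past 2-fold, where 3.92% of genes were lower and 4.83% higher. In the fit 0 of 7 members passed for medium, where 4.03% of genes did, and 0 had an unadjusted limma p under 0.05, where 22.6% did. The treated arrays were also compared between media, a comparison chosen after the values were seen. With TNF-α all 7 members were higher in differentiation than in growth medium, from 0.05 in Sqle to 1.23 in Insig1, as were 50.7% of genes. With BTZ all 7 were lower, from -0.32 in Hmgcs1 to -1.33 in Fdft1, as were 50.4% of genes. Past 2-fold were 1 of 7 members in each, Insig1 and Fdft1, beside 5.85% of genes higher with TNF-α and 2.13% lower with BTZ. These contrasts reuse the arrays of the comparisons above.

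The rest of the pathway was read from lists of its enzymes, also chosen with earlier results of these data known. The lists held 12 further measured enzymes, each expressed over the floor. With BTZ in growth medium, 6 of the 12 had a signal at least 2-fold lower, beside 6.16% of genes. The count was 8 in differentiation medium, beside 8.91% of genes, and the median of the 12 there was -1.27. In either medium 0 of them were higher by that much. Nsdhl, a dehydrogenase in the removal of lanosterol's methyl groups, differed by -1.81 and -2.28, and Dhcr7, which makes cholesterol in the last step of 1 branch, by -1.60 and -1.82. Fdps, the farnesyl diphosphate synthase, differed by -1.35 and -2.23, and the sterol isomerase Ebp by -0.96 and -2.24. In the fit 7 of 12 fell with BTZ, where 6.85% of genes did. Among them were Nsdhl at -2.04 ± 0.29 (limma adjusted p = 0.0163) and Fdps at -1.79 ± 0.30 (limma adjusted p = 0.0217).

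Small BTZ differences are given for Pmvk and Sc5d, which were chosen after their values were seen. Pmvk, the phosphomevalonate kinase, was at -0.36 in growth and -0.04 in differentiation medium, and Sc5d, a sterol desaturase, at -0.29 and -0.62. With TNF-α in growth medium 0 of the 12 were past 2-fold (median -0.56), where 1.02% of genes were lower by that much. Hsd17b7 at -0.86 and Nsdhl at -0.82 were the lowest of the 12 there. In differentiation medium their median with TNF-α was -0.16. Among the untreated arrays Lbr, a sterol reductase that also anchors chromatin at the nuclear envelope, was the single enzyme past 2-fold, at -1.03. Of all genes 3.92% were lower and 4.83% higher by that much.

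Of 7 genes of SREBP control, 3 fell with BTZ in the fit, beside 6.85% of all genes: Srebf2, Insig1 and Srebf1. Srebf2 and Insig1 are members already counted above, so only Srebf1 adds to them. Srebf1, which encodes the relative of SREBP2 that drives fatty acid genes, had BTZ differences of -0.65 and -0.84 and an effect of -0.75 ± 0.17 in the fit (limma adjusted p = 0.0422), a call that was lost without the floor (limma adjusted p = 0.0652 there). Scap, the escort protein, differed by -0.42 and -0.60, and Insig2 by -0.07 and -0.62. Mbtps1 and Mbtps2, the proteases that cut SREBPs in the Golgi, differed by 0.23 and -0.47 and by -0.05 and 0.35.

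**Figure D3:**
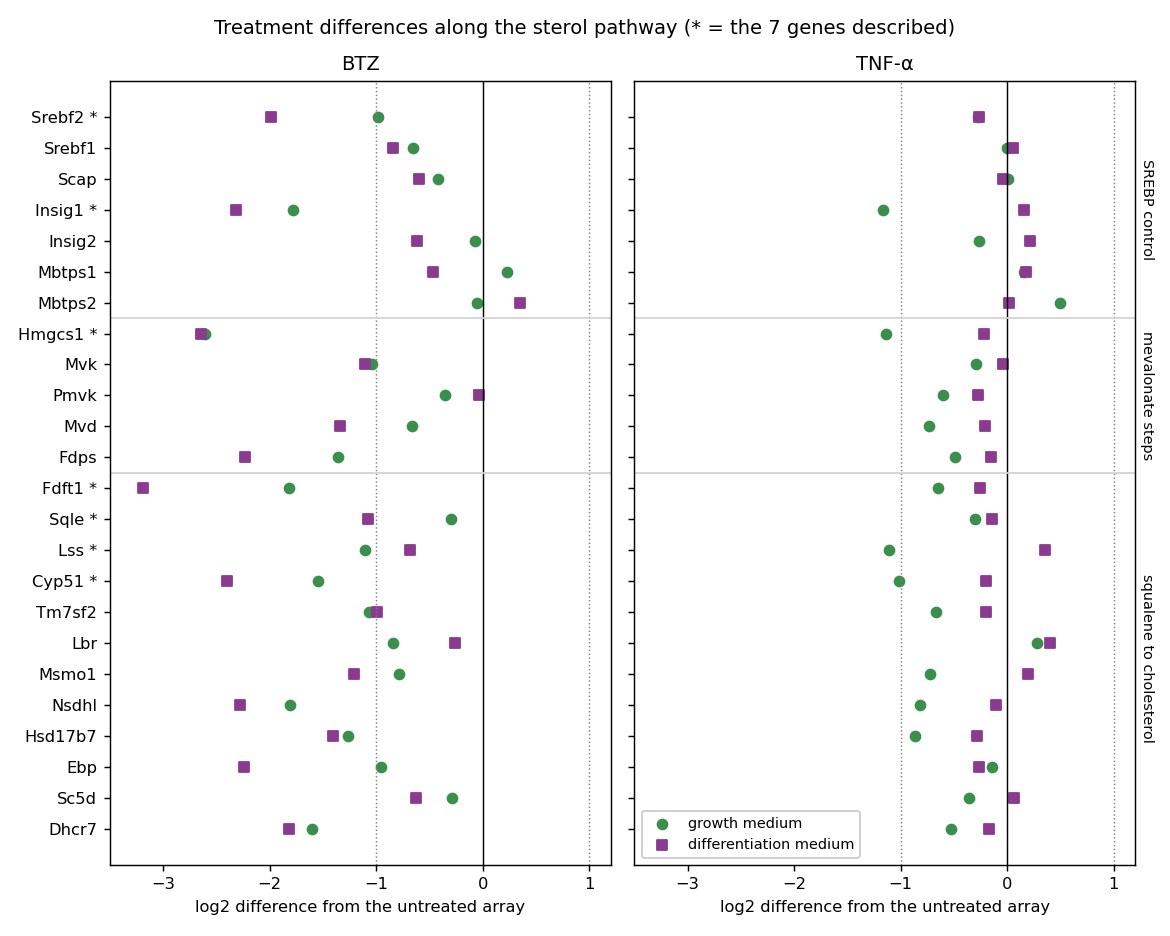
Log2 difference from the untreated array of the same medium (x axis) for BTZ on the left and TNF-α on the right, for the genes of SREBP control, the mevalonate steps and the steps from squalene to cholesterol (y axis); circles are growth medium, squares differentiation medium, and dotted lines mark 2-fold. With BTZ 17 of 17 enzymes lie below 0 in growth medium, beside 48.4% of genes, and 17 of 17 in differentiation medium, beside 49.7%. With TNF-α 16 of 17 do in growth medium and 13 of 17 in differentiation medium, beside 6297 and 6686 of 13652 genes.

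The members differed among themselves in how alike their profiles were. Profiles were centred on each gene's mean over the 6 arrays and compared by the root mean square difference, in log2 units. The most alike pair was Insig1 and Cyp51 at 0.20, and the least alike Hmgcs1 and Sqle at 0.86. Sqle and Lss were nearer to each other, at 0.32, than Lss was to any other member. Against the mean of the 7, Cyp51 was at 0.12, Srebf2 at 0.20, Insig1 at 0.22, Hmgcs1 at 0.39, Fdft1 at 0.40, Lss at 0.44 and Sqle at 0.49, while the median over all genes above the floor was 0.84. That mean contains these genes, so their closeness is a description.

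Outside the pathway lists, the 10 genes nearest to the members' mean profile were Fam114a1 at 0.14, Marveld1 at 0.17, Creb3l2, Acaa2 and Tbc1d8b at 0.19, Aqp5, Mmut and Bicc1 at 0.21, and Hip1 and S100a13 at 0.23. Fam114a1, for example, read 9.63, 8.74 and 8.04 in growth medium and 9.64, 9.44 and 7.72 in differentiation medium. Acaa2, a mitochondrial thiolase of fatty acid oxidation, differed by -1.76 and -2.37 with BTZ in growth and differentiation medium, and Mmut, the mitochondrial methylmalonyl-CoA mutase, by -0.83 and -2.00. Of the 20 genes nearest to the profile that are not members, 5 came from the pathway lists, which hold 55 such genes above the floor: Nsdhl, Ebp, Dhcr7, Fdps and Scd1, the stearoyl-CoA desaturase.

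Several other gene groups differed on the same arrays. Mitotic genes had a median difference of -2.69 with BTZ in growth medium and -1.25 in differentiation medium. At least 2-fold lower were 11 and 7 of 11, beside 6.16% and 8.91% of genes above the floor. Between the untreated media the mitotic median was -3.16, and the members' median was -0.12. Myotube markers had a BTZ median of -3.62 in differentiation medium and -0.25 in growth medium, and genes of the integrated stress response of 2.47 and 1.46. Myoblast markers had BTZ medians of -1.13 in growth and -1.14 in differentiation medium. Of these markers 4 and 5 of 7 were at least 2-fold lower, where 6.16% and 8.91% of genes were. In the fit 3 of 7 fell, beside 6.85% of genes. Housekeeping genes had BTZ medians of -0.31 in growth and 0.03 in differentiation medium. Of 4 macrophage markers above the floor, 2 rose with BTZ in the fit, where 7.31% of genes did. These were Cd14, with differences of 2.01 in growth and 1.80 in differentiation medium, and Cd68, with 1.17 and 0.61. Fcer1g differed by -0.34 and -0.26 and Csf1r by 0.07 and 0.10. The list's summed signal was log2 7.86 to 9.37 over the arrays, and Ptprc, Adgre1, Itgam and Lyz2 lay under the floor on all 6. The part of these groups in the members' differences was not tested.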

How the data were processed

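Total RNA of 6 C2C12 cultures was amplified and biotin-labelled by a whole-transcript method and hybridised to Affymetrix arrays, per the labels' protocols. The deposited table holds 1 value per probe set and array, taken as log2 signal because the values run from 1.66 to 14.06 with array medians of 5.01 to 5.11; how the authors summarised and normalised them is not given in the sources used here. Of 41345 probe sets, 23521 carried a single gene symbol in the platform annotation; a gene was the mean of these, and each member had 1. Genes reaching the floor (the median of all values) on 1 array were tested. Log2 differences of 2 arrays were taken, with 2-fold as called. The fit of medium plus treatment used R 4.3.3 and limma 3.58.1, with a variance trend in eBayes and Benjamini-Hochberg adjustment at 0.05. Its script was tested on simulated arrays with BTZ effects equal in both media, so a treatment acting unequally in the media was not covered. The labels do not say whether cultures were independent, so the p-values of the fit measure only the spread among these arrays.

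Alternatives were a shift to equal medians, quantile normalization, the highest probe set, no floor, a 1.5-fold line and no variance trend. Genes named were all members, up to 4 past 2-fold or called per pathway list and comparison, and the 10 nearest profiles without predicted genes and small RNAs. Members and lists were chosen with earlier results of these data known. Promoters came from RefSeq (GRCm38.p6). Python 3.11.15 and matplotlib 3.10.9 were used for the remainder.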

Additional observations from a re-analysis of the deposited data

Results flagged for a closer look

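Under TNF-α, 2 of the 7 members had differences of opposite sign in the 2 media. That was no more than the share among genes above the floor, 37.7%, with 1 array per group and no test of the difference. Insig1 was lower by 1.17 in growth medium and higher by 0.15 in differentiation medium, a difference of 1.32. Lss was lower by 1.11 in growth medium and higher by 0.36 in differentiation medium, a difference of 1.46. Under BTZ, 0 of 7 members had opposite signs in the media, where 29.5% of genes did.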

How the results depend on the processing

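Each member kept the side of its limma threshold in all alternatives, and the adjusted p of the 5 members called for BTZ stayed between 0.00951 and 0.0387. Of 91 counts and medians under the alternatives, 89 stayed within 1.5 times or within the fitted spread (median SD 0.35). Part of the 91 could not move. The highest probe set leaves the members' differences as they are, and the floor does not alter the members' 2-fold counts. With a 1.5-fold line, 1 member instead of 0 was lower in untreated differentiation medium, and 4 instead of 1 were lower in differentiation than growth medium under BTZ; here only the line itself was moved. Choosing the highest probe set changed no member, since each has 1. Among other pathway genes 6 fitted values passed no longer under an alternative: Ch25h for TNF-α under quantile normalization and with the highest probe set, Npc1 for BTZ with the highest probe set and without the floor, and Mylip and Srebf1 for BTZ without the floor. The comparisons of treated arrays between media and the enzyme counts under other scalings were added after seeing the data. No paired analysis was possible because every group holds a single array and so shares fewer than 2 replicate numbers with any other. With 1 array per group and 2 residual degrees of freedom, array noise and a treatment's difference between media cannot be told apart.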

Other observations

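Genes that handle cholesterol outside its synthesis differed in both directions. Ch25h, the hydroxylase that makes an oxysterol from cholesterol, read 5.24 untreated and 8.55 with TNF-α in growth medium, and 5.98 and 9.52 in differentiation medium. It rose by 3.42 ± 0.30 with TNF-α in the fit (limma adjusted p = 0.0469), with limma adjusted p of 0.0505 and 0.0548 under the alternatives that lost the call. Its 2 probe sets differed in size, since the brighter of them alone gave 5.16 and 4.48 in growth and differentiation medium. Abca1, the exporter of cholesterol, was higher with TNF-α by 1.89 in differentiation medium and by 0.32 in growth medium, and its effect of 1.11 ± 0.46 did not pass (limma adjusted p = 0.752). Its growth-medium signals, 4.61 untreated and 4.94 with TNF-α, lay under the floor. Of 8 genes of sterol uptake and transport, 2 fell with BTZ in the fit, where 6.85% of genes did. These were Tmem97 at -1.15 ± 0.17 (limma adjusted p = 0.0180) and the carrier Stard4 at -1.11 ± 0.17 (limma adjusted p = 0.0188). Npc1, which exports cholesterol from lysosomes, rose by 0.85 ± 0.19 (limma adjusted p = 0.0386, or 0.0566 without the floor and 0.137 with its highest probe set), and the receptor Lrp8 was higher with BTZ by 1.99 in differentiation medium and differed by -0.10 in growth medium.

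Of 15 genes of fatty acid synthesis, 6 fell and 1 rose with BTZ, beside 6.85% and 7.31% of all genes. Scd1 was at -1.94 ± 0.17 (limma adjusted p = 0.00932) and the desaturase Fads2 at -1.51 ± 0.15 (limma adjusted p = 0.0111), while the acyltransferase Gpam rose by 1.21 ± 0.19 (limma adjusted p = 0.0189). In the branch that uses isoprenoids for other products, 2 of 9 rose, Pdss2 and Pggt1b, and Coq2 fell by 0.89 ± 0.18 (limma adjusted p = 0.0319); Pdss2 and Coq2 act in coenzyme Q synthesis. Mir33, the microRNA gene inside Srebf2 in the RefSeq table, lay under the floor on all 6 arrays, at log2 2.72 to 3.44.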
